A study of Mus musculus with 18 samples.

Results

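Regions methylated in female mouse embryonic fibroblasts (MEF) and less methylated in both populations that were sorted by the surface antigen SSEA1 during reprogramming numbered 159 windows of 1 kb, of 32195 autosomal windows (tiles) with data. A member had a mean methylation level of 50% or more in 4 female MEF samples. Its mean in SSEA1-positive cells and its mean in SSEA1-negative cells were each at least 20 percentage points lower. Female MEF sample 2 alone had to lie at least 15 points above both. The members were thus chosen by the levels of female MEF and of both SSEA1 populations, so those levels are a description without a test. The members made up 1.09% of the 14527 autosomal tiles at 50% or more in female MEF, which are called high tiles below.

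Methylation of cytosine in CpG dinucleotides is copied after DNA replication by a maintenance methyltransferase and is removed either by loss through cell divisions or by oxidation by TET enzymes. Most CpGs outside CpG islands are methylated in differentiated cells, and regulatory elements that bind transcription factors are usually less methylated in the cells that use them. During reprogramming of fibroblasts to induced pluripotent stem cells (iPSC), most cells do not reach pluripotency. SSEA1, a carbohydrate antigen of mouse pluripotent cells, is used to separate cells that have advanced from those that have not.

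The assay was reduced representation bisulfite sequencing (RRBS), which reads short CpG-rich restriction fragments after conversion of unmethylated cytosine. The 18 samples were 4 female and 2 male MEF, 2 SSEA1-negative and 2 SSEA1-positive reprogramming samples, 2 iPSC, 4 female embryonic stem cell (ESC) samples and 2 male ESC samples. The SSEA1 samples and the iPSC were female. The labels give cell type and sex alone, with no strain, reprogramming factors, day or passage, and leave unsaid whether replicates are separate cultures, so p-values measure a spread that may be technical. A level is the percentage of methylated among all read counts at the CpGs of a tile. In such bulk samples, a few fully unmethylated cells among methylated ones and partial loss in every cell cannot be told apart.

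Libraries held 11424460 to 62920167 read counts over CpGs. They differed in how many CpGs had reads from either strand, and 3 types were told apart on that share, a division absent from the labels. In type B, 15.2 to 16.05% of CpGs had both strands read, and it comprised the 4 SSEA1 libraries, female MEF 2 and male MEF 1. Type A, at 9.03 to 11.7%, comprised every ESC library with female MEF 1 and male MEF 2. Type C, at 7.25 to 7.46%, comprised female MEF 3, female MEF 4 and the iPSC. Single CpGs of female MEF 3 and 4 differed by 1.07 times the variance that read sampling gives, and those of both iPSC by 1.11 times, against 1.77 to 4.39 times for all other replicate pairs. These pairs may not be independent samples. At 7870 tiles under 2% in every male library, the median level was 3.34% and 3.54% in iPSC and at most 0.794% in each other library, which sets a floor under low iPSC values.

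The members were largely methylated in fibroblasts and stood at intermediate levels in all 4 SSEA1 libraries. The median over the 159 members was 71.4%, 73.7%, 77.7% and 79.6% in female MEF 1 to 4. It was 37.6% and 40.2% in SSEA1-negative samples 1 and 2, and 41.4% and 28.3% in SSEA1-positive samples 1 and 2. The lowest of the 4 medians, in SSEA1-positive 2, came from the shallowest library, with a median of 43 read counts per member against 100 to 132 in the other SSEA1 libraries. The loss from the female MEF mean had a median of 35.6 points in SSEA1-positive cells (20.3 to 77.1) and of 31.5 points in SSEA1-negative cells (20 to 87.6). Over all high tiles these medians were 2.46 and 0.847 points, so methylation of such tiles as a whole was close to that of fibroblasts in both populations.

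**Figure D1:**
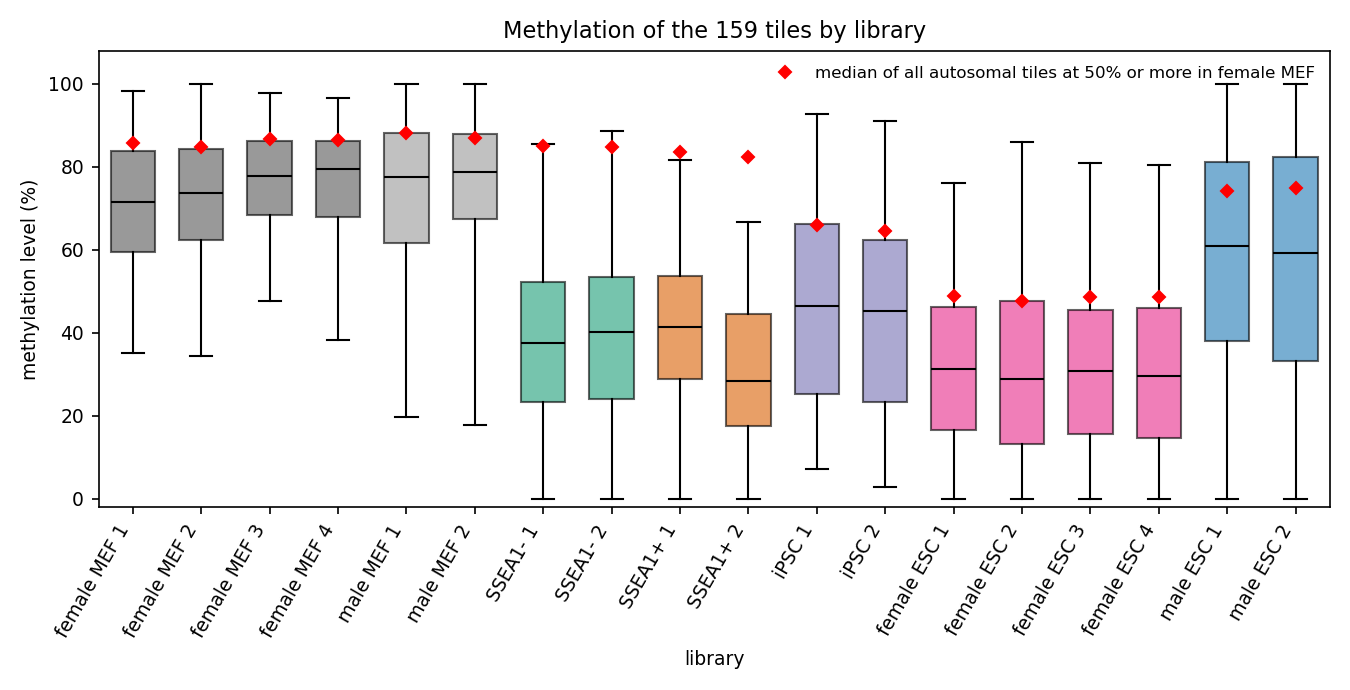
Methylation level in percent (vertical axis) of the 159 members in each of the 18 libraries (horizontal axis), as boxes from the lower to the upper quartile with a line at the median and whiskers from the lowest to the highest member. Red diamonds mark the median of all 14527 high tiles: members lie far below them in the SSEA1 libraries and less far below in fibroblasts, iPSC and ESC.

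The loss was seldom complete. Both SSEA1 means lay under 20% at 6 members and under 10% at 1, while 59 members had both means from 20% up to 50%. Both means were at least 40 points below female MEF at 23 members and at least 50 points below at 8. Taken alone, SSEA1-positive 1 lay 20 points or more below the female MEF mean at 124 members, SSEA1-positive 2 at 152, SSEA1-negative 1 at 138 and SSEA1-negative 2 at 136. Every female MEF library lay above every SSEA1 library at 139 members (87.4%), against 7.92% of all autosomal tiles and 7.72% of high tiles, a separation that the rule itself favours.

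Male MEF were not used to choose the tiles and gave a fibroblast level of their own. Their medians over the members were 77.6% in male MEF 1 and 78.7% in male MEF 2, within the range of the 4 female MEF libraries. Both male libraries lay above all 4 SSEA1 libraries at 139 members (87.4%), against 18.6% of all autosomal tiles and 22.4% of high tiles. All 6 MEF libraries lay above every SSEA1 library at 128 members (80.5%), against 4.47% of all autosomal tiles and 5.62% of high tiles. Male MEF 1, of the same technical type as the SSEA1 libraries, stood at least 20 points above both SSEA1 means at 115 members (72.3%, against 2.11% of high tiles), and male MEF 2 at 122 (76.7%, against 3.21%). The median distance from the male MEF mean to the higher SSEA1 mean was 30.6 points (-0.282 to 73.1). The SSEA1 side of this comparison was chosen for being low, so it has no test. The male minus the female MEF mean had a median of 0.491 points, with quartiles of -5.3 and 6.21 points. The male mean was 20 points or more lower at 3 members and higher at 4.

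The means of the SSEA1 populations lay within 10 points of each other at 82 members (51.6%, against 80% of high tiles). SSEA1-positive cells were 20 points or more below SSEA1-negative cells at 21 members (13.2%, against 4.72% of high tiles) and as far above them at 12 (7.55%, against 1.6%). Their median difference was -3.31 points (-38.9 to 43.9), against -1.69 points over high tiles. Both SSEA1-positive libraries lay below both SSEA1-negative libraries at 32 members (20.1%, against 26.3% of high tiles), and the reverse held at 22 (13.8%, against 12.1%), so separation of the libraries was near or below its share among high tiles. Since the rule held both populations low, the difference has no test. The samples within a population also differed at these tiles. The median SD of the pair was 9.5 points in SSEA1-positive and 6.66 points in SSEA1-negative cells, against 4.38 and 2.81 over all high tiles. Members also stood nearer the middle of the scale, with median group means of 35.7% and 38.3% against 83% and 85%, and had fewer reads. The part of this, and of the choice by low means, in the SD was not tested.

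**Figure D2:**
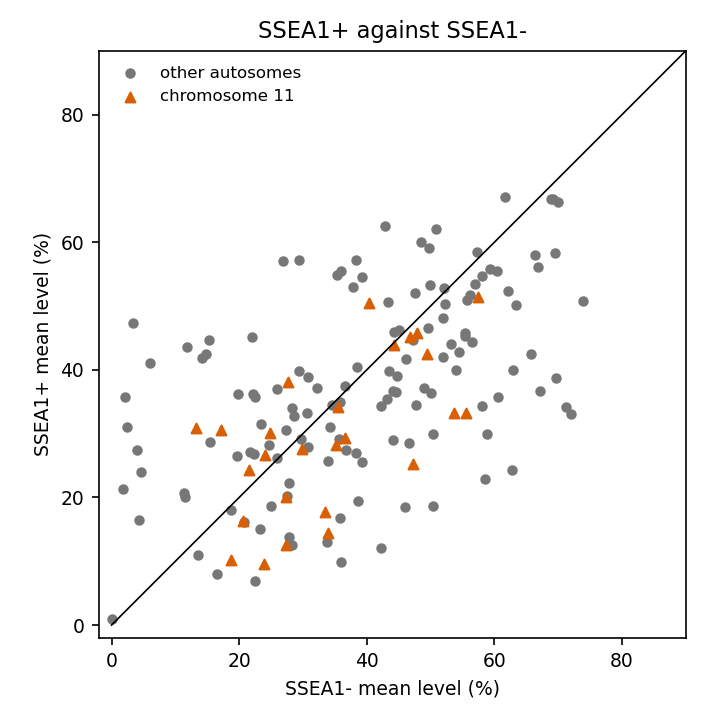
Mean level in SSEA1-positive cells (vertical axis, percent) against SSEA1-negative cells (horizontal axis, percent), 1 point per member, with the 26 members on chromosome 11 as triangles and the line of equal levels. Points scatter on both sides of the line, with 21 members at least 20 points below it and 12 at least 20 points above it.

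Of the 5 members lowest in both populations, only the lowest had both means under 10% (coordinates are on build mm9, counted from 1). At chromosome 12, 107718001 to 107719000, both SSEA1-negative libraries read 0%, and the SSEA1-positive libraries read 1.92% and 0%. The female MEF there stood at 57.4%, 71.4%, 62.9% and 56.1%, and male MEF at 62.5% and 54.5%. The tile was also low in iPSC (10.7% and 5.77%), in female ESC (2.68% to 9.09%) and in male ESC (6.82% and 5.36%). No fibroblast library overlapped with any other library. All its 4 CpGs lie in 1 stretch of the tile, and read counts ranged from 20 to 280 per library.

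At chromosome 12, 111737001 to 111738000, the SSEA1-positive libraries read 14% and 2.13% and the SSEA1-negative libraries 2.5% and 30.4%. Fibroblasts were uneven here, at 52.4%, 39.2%, 89.2% and 87.7% in females and 29.6% and 82.2% in males, so male MEF 1 fell below the higher SSEA1-negative library. Both iPSC (10.8% and 10.3%) and all ESC (1.63% to 13%) were low. Another tile of the same chromosome, 112908001 to 112909000, read 20.3% and 15.7% in SSEA1-positive, 16.1% and 21.2% in SSEA1-negative, 7.87% and 8.66% in iPSC, and 34.5% to 69.2% in female MEF. At chromosome 2, 20442001 to 20443000, SSEA1-negative cells read 3.12% and 5.38%, SSEA1-positive cells 23% and 10%, and female MEF 40.4% to 61.5%. These 3 tiles had low levels in SSEA1 cells and in iPSC alike, with male ESC at 31.9% and 30.9% in the tile at 112908001 and at most 16% in the others.

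The fifth, at chromosome 2, 27167001 to 27168000, stood apart in its reads. It read 10.3% and 11.7% in SSEA1-positive and 17.5% and 9.49% in SSEA1-negative cells, against 68.7% to 94.8% in female MEF, 73.9% and 71.9% in iPSC, and 90.1% and 86% in male ESC. Its read counts relative to female MEF 2 were higher in all 4 SSEA1 libraries than at a median autosomal tile, by 2.40 to 2.96 on the log2 scale, and by -0.44 in male MEF 1. Among high tiles it was the only 1 with an excess above 2 in every SSEA1 library. The excess and the low level sat on the same pair of CpGs. At the first of them, 538 bp into the tile, SSEA1-positive 1 had 39 methylated of 399 reads, and female MEF 2 had 11 of 19. At 646 bp, the CpG read in all 18 samples, SSEA1-negative cells had a mean of 94.3% and SSEA1-positive cells of 77.3%, against 90.9% in female MEF. The part of the additional reads in the low level was not tested, and the tile is not used as an example of loss below.

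Members were poor in CpGs. The sample with the fewest counted CpGs had a median of 3 (3 to 10) per member, against 4 per high tile and 5 per autosomal tile, and 66% of members had no more than 3 in some sample, against 45.4% of high tiles. Only 1 member (0.629%) had 10 or more in every sample, against 5.2% of high tiles. CpGs seen in any of the 18 files numbered a median of 6 per member, 9 per high tile and 14 per autosomal tile. The median of read counts per member and sample was 102, against 116 for high tiles. Members thus had fewer counted CpGs and slightly fewer reads than high tiles, and the part of this in their selection was not tested.

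Among the 5 members with the most CpGs, partial loss was the rule. The tile at chromosome 11, 117202001 to 117203000, with 7 or more CpGs in every sample, read 83.1%, 86.7%, 85.5% and 86.3% in female MEF. Male MEF read 86.9% and 88.5%. It read 49.6% and 44% in SSEA1-negative, 47.4% and 42.9% in SSEA1-positive, 20.1% and 20.3% in iPSC, 12% to 18.6% in female ESC and 41.5% and 51.3% in male ESC. Here the 6 fibroblast libraries lay far above all others, and iPSC and female ESC lay below both SSEA1 populations. The tile with the most CpGs, at chromosome 15, 37209001 to 37210000 (10 or more), read 89.2% to 92.7% in female MEF, 64.5% and 73.8% in SSEA1-negative and 73.1% and 60.5% in SSEA1-positive cells. It stood at 13.2% and 18% in iPSC, 6.83% to 16.5% in female ESC and 11.6% and 16.2% in male ESC. Male MEF 1 read 69.8% there, within the SSEA1 range, and male MEF 2 93.5%. All SSEA1 libraries thus lay below female MEF and far above every pluripotent library at this tile.

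The other 3 CpG-rich members started lower. At chromosome 4, 149434001 to 149435000, female MEF read 62.7% to 64.5%, SSEA1-negative 33.9% and 21.6%, and SSEA1-positive 22.6% and 5.05%. This tile stood higher than in SSEA1 cells in iPSC (41.8% and 41.1%) and in male ESC (55.5% and 68.2%), with female ESC at 26.2% to 32.5%. At chromosome 1, 155038001 to 155039000, SSEA1-negative cells read 24.6% and 22.3% and SSEA1-positive cells 36.5% and 26.4%, against 56.4% to 68.8% in female MEF and 25.1% and 23.4% in iPSC. At chromosome 2, 26460001 to 26461000, replicates disagreed most, with 39.9% and 15.8% in SSEA1-negative and 31.9% and 12.5% in SSEA1-positive cells, female MEF at 49.8% to 57.7%, and male MEF 1 at 40.1%, next to SSEA1-negative 1.

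Most but not all of the member CpGs that were read in all 18 samples were lower in both SSEA1 populations. The rule chose the tiles on these same levels, so such a majority is favoured by it and has no test. Of 362 CpGs in members that had 5 or more reads in all 18 samples, 219 (60.5%) were 20 points or more below female MEF in both SSEA1 means, and 38 were above female MEF in at least 1 of them. Their median level was 78.1% in female MEF, 81.4% in male MEF, 37.5% in SSEA1-negative, 34.3% in SSEA1-positive, 43.3% in iPSC, 27.7% in female ESC and 61.3% in male ESC. Of 74 members with 3 or more such CpGs, 22 had every CpG lower by 20 points in both, and 4 had none. At the tile on chromosome 4 named above, all 7 such CpGs were lower in SSEA1-positive cells, whose means ranged from 8.33% to 19.4%. SSEA1-negative cells ranged from 7.89% to 62.5% over the same CpGs, with the lowest values at 828 and 837 bp.

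**Figure D3:**
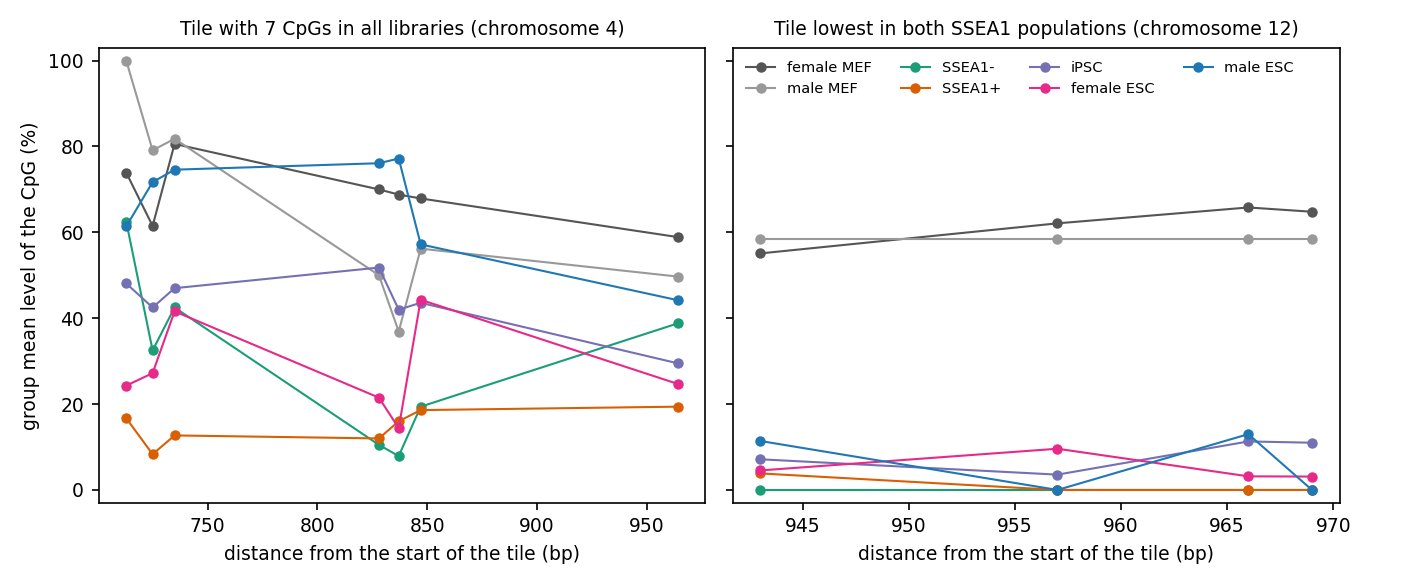
Group mean level of single CpGs (vertical axis, percent) by distance in bp from the start of the tile (horizontal axis), for CpGs with 5 or more reads in all 18 samples. Left, chromosome 4, 149434001 to 149435000, where SSEA1-positive means stay at 19.4% or less; right, chromosome 12, 107718001 to 107719000, where all 4 CpGs are at 3.85% or less in both SSEA1 populations and above 50% in fibroblasts.

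Libraries of different types read different CpGs of a tile, so the members were measured again over CpGs shared by the 6 type B libraries, a step chosen after seeing the data. Of 138 members with at least 3 such CpGs, female MEF 2 was 15 points or more above both SSEA1 means at 125 and at or below 1 of them at 0. The rule had already asked for this distance in the same libraries, so that count is no separate test. Male MEF 1, which the rule did not use, was 20 points or more above both SSEA1 means at 104. The SSEA1 side was again chosen for being low, and the same counts over high tiles were not made. Medians were 71.8% in female MEF 2, 76.3% in male MEF 1, 34.7% and 37.2% in SSEA1-negative, and 40.2% and 28% in SSEA1-positive cells.

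Members lay on all 19 autosomes. No 2 were adjacent, the median gap between neighbours was 6282.5 kb, and 5 gaps were of 100 kb or less. Gaps between high tiles were not measured, and few high tiles beside a member had data, so the spacing is a description alone. High tiles 1 kb away, of which 5 had data, had a median loss of 8.48 points in SSEA1-positive and 5.10 points in SSEA1-negative cells. The 10 high tiles at 2 to 5 kb had 7.94 and 4.29 points, the 70 at 6 to 20 kb 5.79 and 0.750 points, and the 14368 high tiles that were no members 2.37 and 0.781 points. These differences rest on few tiles.

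Chromosome 11 held 26 members, 16.4% of them, against 6.11% of high tiles, and 2.93% of its high tiles were members against 1.09% overall. On other autosomes this share ran from 0.354% on chromosome 3 to 1.62% on chromosome 8. Chromosome 11 also carried more reads in SSEA1-positive cells: the median tile was higher than in female MEF 2 by 0.183 and 0.194 on the log2 scale, against -0.007 and -0.022 in SSEA1-negative cells and values of at most 0.041 on every other autosome in the 4 SSEA1 libraries. The part of these reads in the share of members was not tested. Members on chromosome 11 had medians of 69.2% in female MEF, 76.5% in male MEF, 33.7% in SSEA1-negative and 29.7% in SSEA1-positive cells. On the other autosomes these were 76.6%, 76.9%, 39.2% and 36.7%. The rule held the SSEA1 levels of members low on every autosome, so this is a description without a test.

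In pluripotent cells, which the rule did not use, the members differed widely among themselves. Median levels over members were 46.4% and 45.2% in iPSC, 28.9% to 31.4% in female ESC, and 61% and 59.3% in male ESC. Over all high tiles they were 65.9% and 64.6%, 47.6% to 48.9%, and 74.2% and 74.8%. Both iPSC libraries were under 20% at 23 members (14.5%, against 3.21% of high tiles) and at 50% or more at 66 (41.5%, against 65.2%). All 4 female ESC libraries were under 20% at 38 members (23.9%, against 4.03% of high tiles) and at 50% or more at 16 (10.1%, against 34.9%). Both male ESC libraries were under 20% at 14 (8.81%, against 1.28%) and at 50% or more at 91 (57.2%, against 73.6%). Members also started lower than high tiles in male MEF, at a median of 76.9% against 87.4%.

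**Figure D4:**
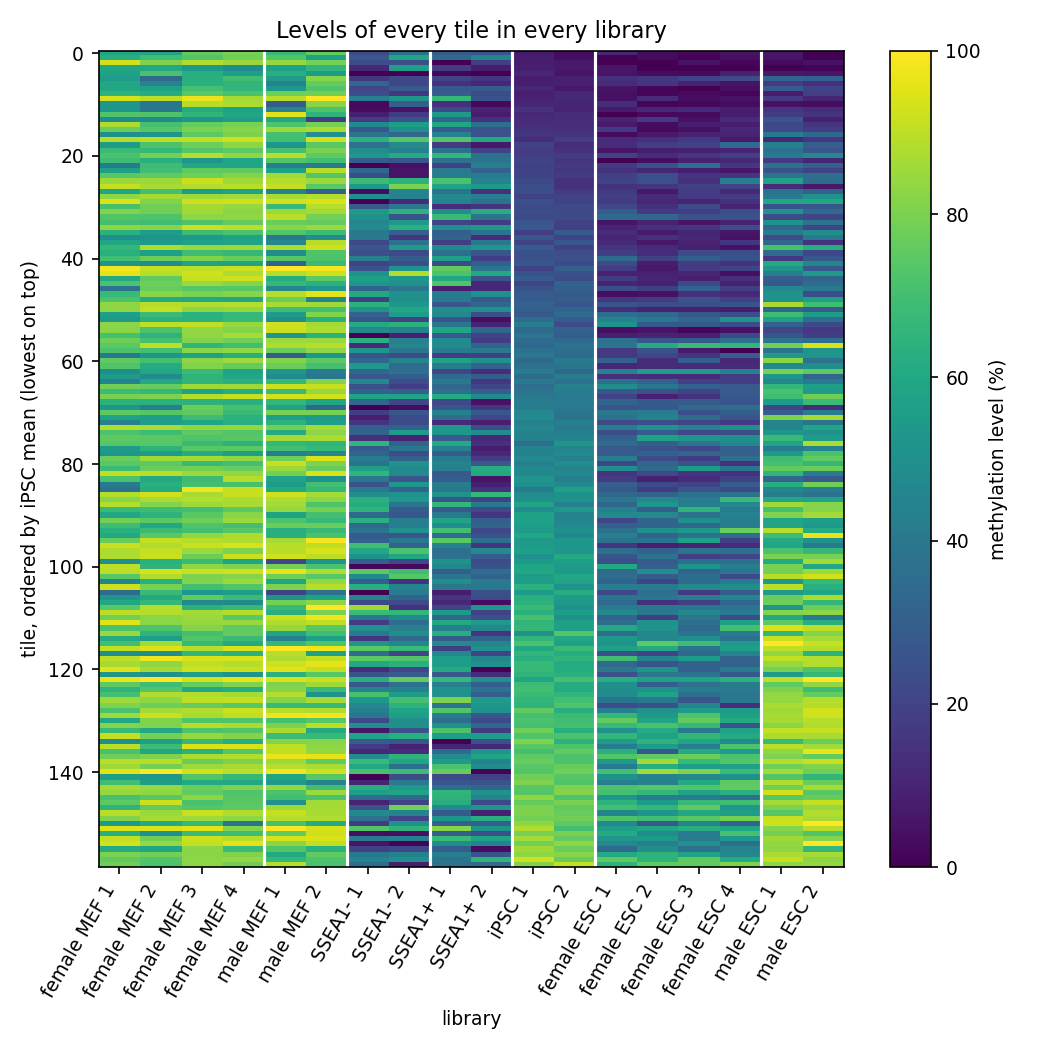
Methylation level in percent (colour) of each of the 159 members (rows, ordered by the iPSC mean, lowest on top) in each library (columns, groups separated by white lines). Fibroblast columns are mostly above 60% and SSEA1 columns mostly below 50% at all iPSC levels.

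Against male MEF, iPSC were lower at most members, and a similar share of high tiles was lower. A quasi-binomial model was fitted to all 33545 tiles in the 10 samples that the rule did not use, and a tile was called at a Benjamini-Hochberg adjusted p under 0.05 and a difference of at least 20 points. In iPSC, 95 of 159 members (59.7%) were lower, against 25.6% of all autosomal tiles and 52% of high tiles. Only 2 members were higher (1.26%), against 2.59% and 0.702%. The median difference was -28.1 points over members and -20.8 points over high tiles. The iPSC and male MEF libraries have no type in common. With library type as a term in a fit of all 18 samples, 80 members were lower and 0 higher, against 95 lower without that term. That fit includes female MEF and SSEA1 libraries, which chose the members, and type C is tied to the other types through female MEF alone, so its values are not independent of the rule. Counts over high tiles with library type were not made.

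The largest falls in iPSC lay on chromosomes 11 and 13. At chromosome 11, 107297001 to 107298000, male MEF read 89.6% and 100%, and iPSC 9.09% and 11.4%, a fall of 84.5 points by group means. The adjusted p of the quasi-binomial F test was 6.81e-06. SSEA1-negative cells read 42.9% and 52.9% and SSEA1-positive cells 66.7% and 25% there, between the fibroblast and iPSC levels. At chromosome 11, 76171001 to 76172000, male MEF read 84.3% and 79%, and iPSC 8.19% and 6.75% (quasi-binomial adjusted p = 1.57e-07), with SSEA1-negative cells at 23.6% and 24% and SSEA1-positive cells at 0% and 19%. At chromosome 13, 113566001 to 113567000, male MEF read 100% and 98.4%, and iPSC 19.8% and 30.3% (quasi-binomial adjusted p = 1.60e-06). These 3 tiles were also low in all female ESC, at 0% to 20.6%.

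The 2 members called higher in iPSC lost that call with library type as a term. At chromosome 4, 150228001 to 150229000, male MEF read 19.8% and 37.4%, and iPSC 54.6% and 62.3% (quasi-binomial adjusted p = 0.0025, and 0.344 with library type). Female MEF there ran from 35.2% to 67.9%, so fibroblast libraries did not share a level. At chromosome 8, 12463001 to 12464000, male MEF read 54% and 45.2%, and iPSC 80.8% and 72.9% (quasi-binomial adjusted p = 0.0114, but 0.0799 with library type, 0.107 without iPSC 1 and 0.0523 by limma). SSEA1-negative cells read 10.7% and 41.3% there and SSEA1-positive cells 26.5% and 25.7%, all below every fibroblast and iPSC library.

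In female ESC, 132 members (83%) were lower than in male MEF and 0 were higher by the quasi-binomial test, against 39.3% lower and 0.655% higher among all autosomal tiles and 79.6% and 0.0964% among high tiles. The median difference was -42.1 points over members and -35.1 points over high tiles. The share called lower was thus near that of high tiles. At an unadjusted p under 0.05, 0 members were higher in female ESC, and limma called 0. The largest falls were at chromosome 11, 107297001 to 107298000 (female ESC at 3.85% to 11.8%), chromosome 4, 141623001 to 141624000 (92% and 87.6% in male MEF, 1.69% to 5.2% in female ESC) and chromosome 2, 168785001 to 168786000 (88.9% and 96%, then 3.8% to 13.5%). Their quasi-binomial adjusted p-values were 1.55e-07, 1.61e-09 and 2.87e-07. At the last 2, SSEA1 cells stood at 33.3% to 60.9%, between fibroblasts and female ESC.

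In male ESC, the same sex as the male MEF, 66 members (41.5%) were lower and 10 (6.29%) higher. The background was 18.1% lower and 3.96% higher among all autosomal tiles, and 36.3% and 2.14% among high tiles. The median difference was -12.7 points over members and -10.5 over high tiles. The largest falls were at the chromosome 11 tiles at 107297001 (16.7% and 10.5% in male ESC) and 76171001 (3.03% and 4.94%), and at chromosome 7, 30065001 to 30066000, where male MEF read 90.9% and 74.2% and male ESC 13.2% and 6.85% (quasi-binomial adjusted p = 1.17e-06). The largest rises were at chromosome 11, 117936001 to 117937000, with 43.6% and 56.9% in male MEF and 91.7% and 86% in male ESC (quasi-binomial adjusted p = 9.37e-06), and at chromosome 2, 93329001 to 93330000, with 21.7% and 51.9%, then 61.1% and 86.3% (quasi-binomial adjusted p = 0.000923, but 0.401 without male MEF 1). At the first of these, SSEA1 cells read 15.3% to 34.3% and iPSC 65.7% and 59.8%. The chromosome 8 tile at 12463001 was higher in male ESC too, at 88.1% and 77.5% (quasi-binomial adjusted p = 0.00237, and 0.0634 without male ESC 1). These 3 comparisons share the male MEF samples.

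Set directly against each other, iPSC were more often higher than female ESC and more often lower than male ESC. Compared with female ESC, 43 members (27%) were higher and 1 lower in iPSC, against 11.5% and 0.255% of all autosomal tiles and 21% and 0.392% of high tiles. The median difference was 12.9 points over members and 9.90 over high tiles. In a fit of all 18 samples, 41 members were called higher without a term for library type and 8 with it. High tiles were not counted in that fit, so whether the drop is particular to members was not tested. The largest differences were at chromosome 8, 59978001 to 59979000 (iPSC 54.9% and 52.6%, female ESC 8.96% to 15.8%), chromosome 1, 184754001 to 184755000 (65.1% and 72.5%, 13.6% to 45.8%) and chromosome 6, 71930001 to 71931000 (82.9% and 75%, 28% to 46.7%). Quasi-binomial adjusted p-values were 4.93e-05, 0.00276 and 0.00287, and the first and last calls were lost with library type (adjusted p = 0.246 and 0.138). The lower member, at chromosome 2, 75895001 to 75896000, read 33.5% and 37.3% in iPSC and 38.5% to 68.3% in female ESC (quasi-binomial adjusted p = 0.0135, but 0.0521 without female ESC 3, 0.0624 without iPSC 1, 0.151 with a replicate block and 0.694 with library type, and 0.124 by limma).

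Compared with male ESC, 45 members (28.3%) were lower and 1 higher in iPSC, against 9.39% and 0.78% of all autosomal tiles and 17.7% and 0.633% of high tiles. The median difference was -10.8 points over members and -11.3 over high tiles, which does not exceed that of high tiles. The count varied with the test, with 25 lower members with limma, and, in the fit of all 18 samples, 42 without and 22 with library type. High tiles were not counted under these settings. Fewer members were also lower without male ESC 1 or without iPSC 2. Each of these fits leaves a group of 1 library, and the part of that in the lower count was not tested. At chromosome 2, 164599001 to 164600000, iPSC read 31.3% and 26.8% and male ESC 87% and 69.2% (quasi-binomial adjusted p = 0.000192), with SSEA1-positive cells at 26.6% and 33.3% and SSEA1-negative cells at 64.4% and 53.3%. Levels at chromosome 2, 75895001 to 75896000, were 78.7% and 94.9% in male ESC, and at chromosome 11, 8526001 to 8527000, 28.7% and 19.4% in iPSC and 71% and 62.3% in male ESC. Both were called lower in iPSC (quasi-binomial adjusted p = 0.000673 and 0.000697), and neither was past the threshold with library type (0.0776 and 0.112). The higher member, at chromosome 8, 124641001 to 124642000, read 41.9% and 41% in iPSC and 21.1% and 13.1% in male ESC (quasi-binomial adjusted p = 0.0035, and 0.933 with library type). SSEA1-negative cells read 0% and 3.51% there, and SSEA1-positive cells 26.7% and 16.1%.

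Female ESC were lower than male ESC at 101 members (63.5%) and higher at 0, against 27.2% and 0.0373% of all autosomal tiles and 52.3% and 0.0275% of high tiles. All 6 ESC libraries were of type A. At an unadjusted p under 0.05, 1 member was higher in female ESC, and limma called 0. Fewer members were called lower without male ESC 1, a fit that leaves 1 male ESC library. The median difference was -25.4 points over members and -21.6 over high tiles. At chromosome 1, 184754001 to 184755000, male ESC read 87.1% and 88.6% and female ESC 13.6% to 45.8%, and at chromosome 15, 84075001 to 84076000, 89.4% and 92.9% against 22.6% to 36.2% (quasi-binomial adjusted p = 3.42e-05 and 1.15e-05). The tile on chromosome 6 at 71930001 read 92.8% and 100% in male ESC. At the first 2 tiles, SSEA1 libraries read 38% to 64.6% and 32% to 73.6%, below both male ESC libraries and overlapping with female ESC.

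Relative to the SSEA1 populations, the iPSC mean lay within 20 points of both SSEA1 means at 65 members (40.9%, against 46.3% of high tiles). The iPSC mean was above both SSEA1 means at 84 members (52.8%, against 7.65% of high tiles), by 20 points or more at 36 (22.6%, against 1.2%). It was below both at 45 (28.3%, against 82.9%), by 20 points or more at 12 (7.55%, against 37.4%). Male ESC were above both at 110 members (69.2%, against 27.1% of high tiles), by 20 points or more at 70 (44%, against 3.56%), and below both at 28 (17.6%, against 57.3%). Female ESC were above both at 51 (32.1%, against 1.82%) and below both at 74 (46.5%, against 94%). Members were thus more often above and less often below the SSEA1 means than high tiles, but they were chosen for low SSEA1 values, so these counts have no test. All 8 iPSC and ESC libraries were under 20% at 12 members (7.55%, against 0.984% of high tiles) and at 50% or more at 16 (10.1%, against 34.2%).

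**Figure D5:**
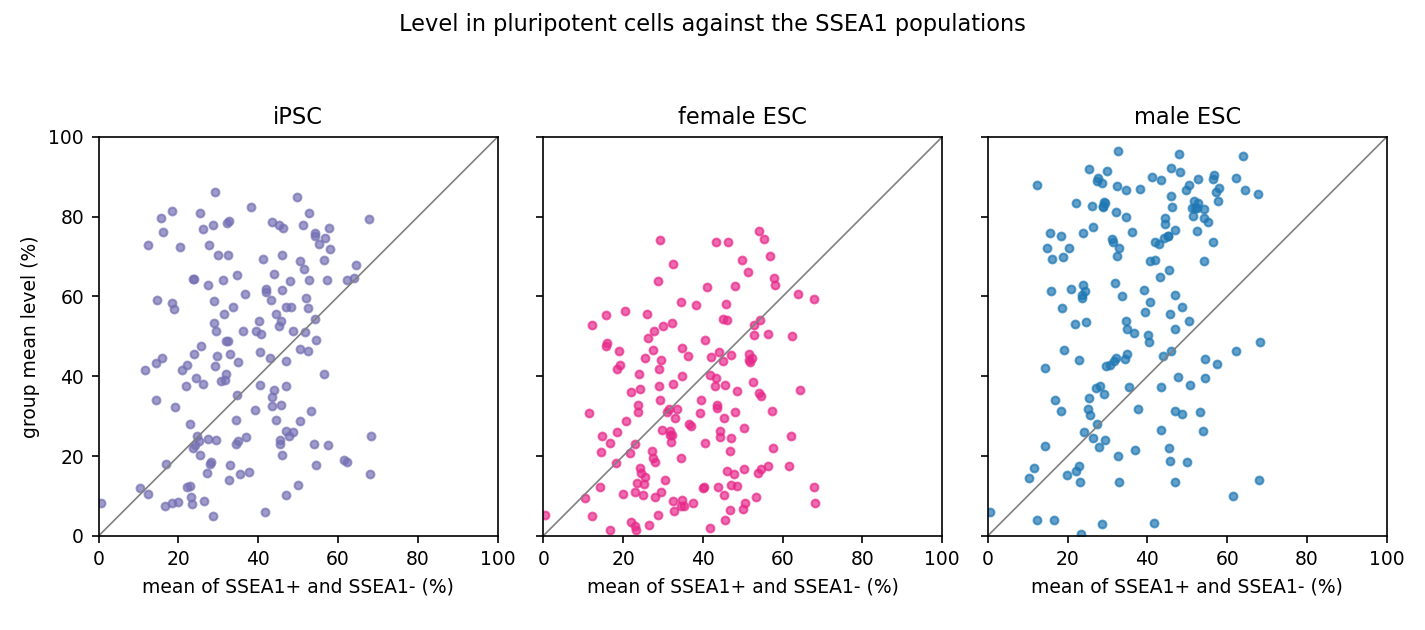
Group mean level (vertical axis, percent) in iPSC, female ESC and male ESC against the mean of the SSEA1-positive and SSEA1-negative means (horizontal axis, percent), 1 point per member, with the line of equal levels. Points spread on both sides of the line, with most above it in male ESC (110 members above both SSEA1 means) and more below than above it in female ESC (74 and 51).

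The 4 members with the highest iPSC levels were also high in male ESC, at 66.7% or more. At chromosome 6, 143994001 to 143995000, female MEF read 71.8% to 82.5%, male MEF 89% and 71.2%, SSEA1-negative 35.9% and 8.33%, and SSEA1-positive 37.3% and 35.1%. The iPSC read 81% and 91.2%, female ESC 64.5% to 80.5%, and male ESC 83.1% and 84%, so none of the 14 other libraries overlapped with the SSEA1 libraries. At chromosome 18, 53333001 to 53334000, SSEA1 libraries read 25.8% to 44%, female MEF 78.7% to 82.3%, male MEF 60.9% and 75.7%, iPSC 83% and 81.8%, and male ESC 87.3% and 86.7%. Female ESC there read 46.5% to 64.9%, the group nearest to the SSEA1 libraries.

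The other 2 of these tiles were less clear-cut. At chromosome 11, 103123001 to 103124000, SSEA1 libraries read 3.23% to 29.5%, female MEF 59.2% to 82.6%, iPSC 85.9% and 77.1%, male ESC 83.6% and 66.7%, and female ESC 35.5% to 49.5%. At chromosome 4, 107186001 to 107187000, SSEA1-positive 2 read 65.5%, close to male MEF 1 at 66.1% and above 2 female ESC libraries at 61.4% and 64.7%. The other SSEA1 libraries read 38.4% to 50% and iPSC 92.9% and 76.8%.

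The 4 members with the lowest iPSC levels were low in every pluripotent library. The chromosome 11 tile at 76171001, given above, had the greatest loss among them, with 80.6% to 93% in female MEF and at most 24% in any SSEA1 library. At chromosome 11, 120029001 to 120030000, SSEA1 libraries read 22.8% to 36.9%, iPSC 7.14% and 2.82%, female ESC 2.11% to 10.7%, male ESC 6.02% and 0%, and female MEF 58.3% to 79.6%. At chromosome 18, 61787001 to 61788000, SSEA1 libraries read 28% to 59%, iPSC 8% and 3.85%, and all ESC 0% to 5.66%. At chromosome 8, 87355001 to 87356000, SSEA1-negative samples disagreed, at 11.2% and 56.2%, the latter within the female MEF range of 48.7% to 60.4%. SSEA1-positive cells read 17.9% and 8.16%, iPSC 8.57% and 7.41%, and ESC at most 6%. At all 4, the SSEA1 means lay between fibroblasts and pluripotent cells, but the iPSC values are near the floor given above.

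Members at the edge of the rule showed how few points decide membership. The 2 nearest inside, chromosome 4, 117626001 to 117627000, and chromosome 9, 34210001 to 34211000, were just over 20 points below female MEF in SSEA1-negative cells. At the latter the SSEA1-negative samples read 25.8% and 78.8%, the second above female MEF 1 to 4 at 65% to 76%. The 2 nearest outside were chromosome 5, 140915001 to 140916000, just under 20 points lower in SSEA1-negative cells, and chromosome 9, 107387001 to 107388000. The last of these read 55.8% and 58.4% in SSEA1-negative, 68.8% and 45.5% in SSEA1-positive cells and 70.2% to 80% in female MEF. Losses under 25 points in at least 1 population were found at 52 of the 159 members.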

How the data were processed

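Per CpG, strand and sample, the authors deposited read counts (methylated and total) and a score derived from them. Only the counts entered here. The build is mm9, per the submitters' processing notes. The aligner is not given in the sources used here. Strands were added, CpGs under 5 reads in a sample were dropped there, and counts were summed over tiles of 1 kb with at least 3 such CpGs in every sample. A read that spans several CpGs counts once at each. No interval for read sampling is given, since reads carry no molecular identifiers.

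The members and lists were chosen with earlier results of these data known. The quasi-binomial model had 4 group means (female ESC, male ESC, iPSC, male MEF; 10 samples), a dispersion moderated across tiles and set to at least 1, F tests in 6 comparisons and Benjamini-Hochberg adjustment over all tiles. It was tested on simulated data. Tiles named are the 5 lowest in both SSEA1 means, the 5 with most CpGs, the 4 highest and 4 lowest in iPSC, up to 3 called members per comparison and direction whose samples do not overlap, and 2 on each side of the 20 point limit, 1 per 100 kb except for the last; no run of adjacent members existed. Library type was set at under 8% (C) and over 14% (B) of CpGs on both strands. Alternatives were other read minimums, shared CpGs, a cap of 50 reads, equal CpG weights, limma on log2 ratios, fits of all 18 samples with and without library type, a replicate block, iPSC as 1 sample and leaving out samples or chromosome 11. Under library type the difference of group means was not adjusted. The reference tables are on another build, so no gene or sequence was assigned. Software was limma 3.58.1 under R 4.3.3, and scipy 1.17.1, numpy 2.4.6, matplotlib 3.10.9 and pandas 2.3.3 under Python 3.11.15.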

Additional observations from a re-analysis of the deposited data

Results flagged for a closer look

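Among 80 groups of 4 samples examined (female MEF and female ESC at the 39 named tiles and over the median of members), 7 had 1 sample far from the other 3. Chance flags about 1 in 20 groups. In female MEF, sample 1 read 67.6% at chromosome 2, 168785001 to 168786000 (others 79.9% to 82.4%) and 66.7% at chromosome 11, 8526001 to 8527000 (others 84.5% to 87.5%). Sample 2 read 71.2% at chromosome 4, 141623001 to 141624000 (others 81.6% to 83.7%), and sample 4 read 62.7% at chromosome 4, 149434001 to 149435000 (others 64.3% to 64.5%). In female ESC, sample 1 read 6% at chromosome 8, 87355001 to 87356000, where the others read 0%, and 13% at chromosome 12, 111737001 to 111738000 (others 1.63% to 3.45%). Sample 2 read 11.8% at chromosome 11, 107297001 to 107298000 (others 3.85% to 5%).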

How the results depend on the processing

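The number of members depended strongly on the read minimum, which also sets which tiles can be measured, and on female MEF 2. Of the 28 of the 159 that could be measured at 10 reads, 27 stayed members. Over CpGs read in all samples, 62 of 74 did. Their number was 31 at a minimum of 10 reads (27 of them among the 159), 310 at 3 reads (151 shared), 95 over CpGs read in all samples (62 shared), 70 at a loss of 30 points, and 140 to 357 when 1 sample of the rule was left out; 357 was reached without female MEF 2 and its condition (143 shared). Equal CpG weights gave 152, of which 119 were shared. Of the 159, 28 could be measured at 10 reads, and the members called were 21 lower in iPSC, 26 in female ESC and 15 in male ESC than in male MEF, 8 higher in iPSC than in female ESC, 6 lower in iPSC than in male ESC, and 18 lower in female than in male ESC. Over CpGs read in all samples, which leave 74 members, these counts were 47, 61, 30, 16, 23 and 40. Fewer members were measured in both settings, and the part of this in the lower counts was not tested. Counts under the alternatives were made for members alone, so no share of high tiles is given beside them. In the fit of all 18 samples, the counts for iPSC against female and male ESC were 41 and 42 without library type and 8 and 22 with it, and that against male ESC was 25 with limma; the cause was not tested. Leaving out each sample gave 90 to 99, 127 to 135, 60 to 67, 37 to 44, 24 to 46 and 67 to 102 called members in the same order. In groups of 2 samples, leaving out 1 left a single library, and the part of that in the lower counts was not tested. With a replicate block the counts were 92, 123, 63, 31, 37 and 87. The difference between samples 1 and 2 did not correlate among female ESC, male ESC, iPSC and male MEF (correlations from -0.0184 to 0.0126). The iPSC pair differed by only 1.11 times the variance of read sampling, so its correlations could hardly show pairing. Whether the numbers pair samples among these groups is thus not settled. Pairing of the SSEA1 samples was not examined. No direction reversed among the 25 named tests, and 16 of their 461 values under alternatives lost the call, 8 of these with library type and 2 with limma. Alternatives chosen after seeing the data left the number of members at 133 without chromosome 11 and at 213 with type B libraries only (130 shared), and iPSC summed as 1 sample moved no count by more than 2.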

Other observations

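Loss in SSEA1-positive cells alone was more common than loss in both populations, and loss in SSEA1-negative cells alone less common. Of the high tiles, 769 were 20 points or more below female MEF in SSEA1-positive cells alone and 205 in SSEA1-negative cells alone, against 250 in both, of which 91 failed the condition on female MEF 2. Taken alone, SSEA1-positive 2 was that much lower at 11.2% of high tiles and SSEA1-positive 1 at 5.88%. SSEA1-negative 1 and 2 were so at 4.74% and 3.63%. SSEA1-positive 2 had a median of 47 read counts per high tile, against 136 to 199 in the other SSEA1 libraries. The part of its depth in the 769 was not tested. The 159 members are 15.6% of the tiles that were lower in SSEA1-positive cells and 34.9% of those lower in SSEA1-negative cells. Of 1350 X tiles, 0 met the conditions of the rule.

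Beside the tile on chromosome 2 described above, 2 members had read counts relative to female MEF 2 that were higher by more than 1 on the log2 scale in all 4 SSEA1 libraries. They lie at chromosome 11, 97199001 to 97200000 (1.05 to 1.49), and chromosome 16, 92680001 to 92681000 (1.03 to 1.34), and were chosen after their values were seen. These 3 are 1.89% of members, and 0.131% of high tiles had such an excess. The tile on chromosome 16 read 49.6% and 45.1% in SSEA1-positive and 5.71% and 1.15% in SSEA1-negative cells, and the tile on chromosome 11 read 40.4% and 16.2%, and 46.8% and 23.7%.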
